A study of Mus musculus with 8 samples.

Results

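The D-type cyclins Ccnd1, Ccnd2 and Ccnd3, their kinases Cdk4 and Cdk6, the Cdk inhibitors Cdkn1b, Cdkn1c, Cdkn2c and Cdkn2d, and their substrate Rb1 were followed in mouse bone marrow LSK cells. LSK cells lack lineage markers and carry Sca-1 and c-Kit, a fraction in which blood stem cells and multipotent progenitors are found. The genes were chosen by symbol, and 10 of the 10 were found among the 13708 genes of the deposited count table. The filter on low counts removed none of the 13708 genes.

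Messenger RNA of sorted LSK cells was sequenced from 4 db/db and 4 db/m samples, each labelled as 6 months after diabetes. The db/db samples were homozygous for the mutated leptin receptor on the strain B6.BKS(D)-Leprdb/J, and the db/m samples were heterozygous, on B6.BKS(D)-Leprdb/+. The mutation is in the germ line of the animal, so every tissue of a db/db mouse carries it, and the db/m samples carry 1 copy. All 8 titles bear the db/m name, so the genotype label set the groups. Replicates are numbered within each genotype, and an equal number in both genotypes marks no pairing. The labels do not say whether each sample came from a separate mouse, and the p-values therefore measure the spread between these samples.

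D-type cyclins bind Cdk4 or Cdk6 in G1, and the active complexes phosphorylate the retinoblastoma protein, which then releases E2F factors that drive the genes of S phase. Inhibitors of the INK4 family, such as the products of Cdkn2c and Cdkn2d, bind Cdk4 and Cdk6 directly. Those of the CIP/KIP family, encoded by Cdkn1b and Cdkn1c, bind complexes of cyclin and kinase and hold back Cdk2 in particular. In blood stem cells of mice, Cdkn1c is known as a gene of quiescence, and Cdk6 as a kinase that stem cells use when they leave quiescence.

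Among the 10 genes, Cdk6 and Cdkn1c were the pair whose db/db and db/m libraries did not overlap. Cdk6 was 1.59-fold lower in db/db, and Cdkn1c was 1.73-fold higher in db/db. Cdkn2c was 1.51-fold lower in db/db with 1 library of overlap, and the other 7 genes differed by less. With edgeR's quasi-likelihood test and adjustment over all genes, 0 of the 10 passed a threshold of 0.05, beside 5 genes in the whole table (0.0365% of those tested, 0.0146% higher and 0.0219% lower in db/db). At an unadjusted p under 0.05 there were 3 members, 1 higher and 2 lower in db/db, against 15.3% of all genes (7.78% higher and 7.54% lower). Groups without overlap made up 9.03% of all genes (4.5% higher and 4.53% lower in db/db). By log2 fold change, 4 members were higher and 6 lower in db/db, with a median of -0.02, beside a median of 0.01 over all genes.

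**Figure D1:**
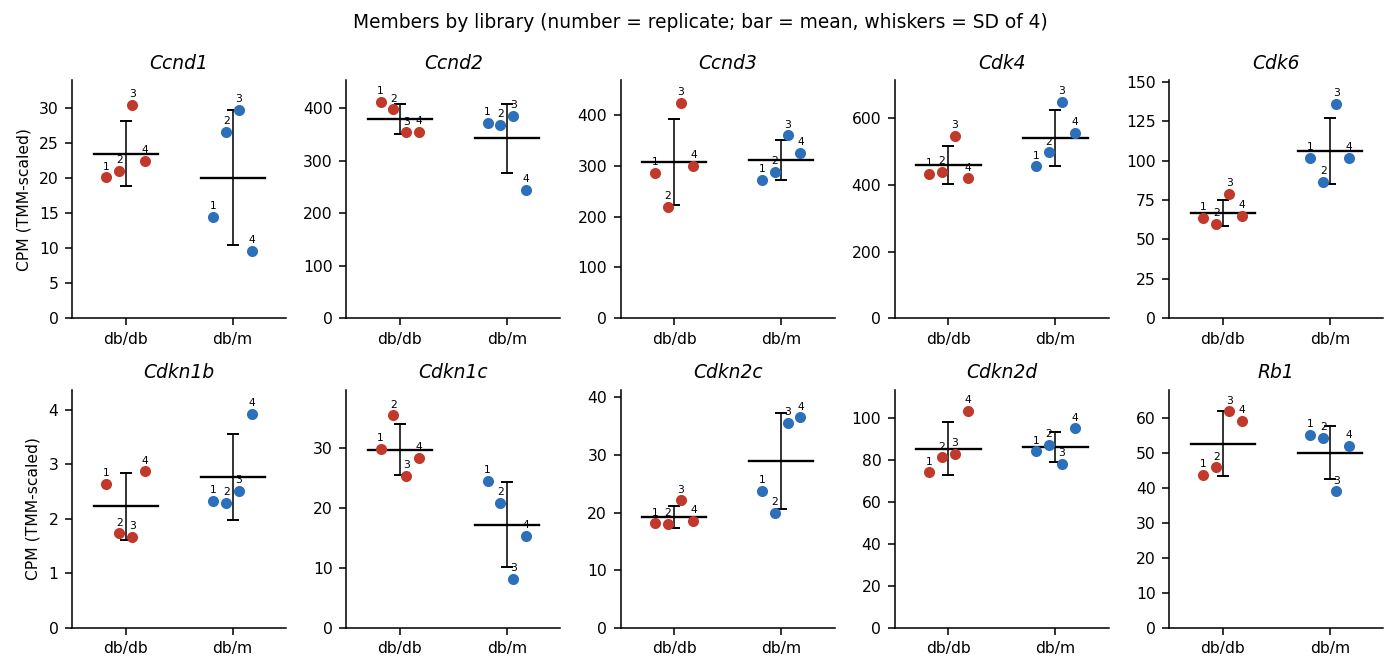
Level of each of the 10 genes in each library, in CPM (counts put on one library size by TMM) on axes that start at 0. Points are libraries with their replicate number, db/db in red and db/m in blue, bars are means and whiskers the SD of 4. The 4 db/db points of Cdk6 lie between 59.7 and 78.998 CPM, below the db/m points, and those of Cdkn1c lie between 25.4 and 35.4 CPM, above the db/m points.

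Of the kinases, Cdk6 differed more than Cdk4. Cdk6, one of the pair of kinases that D cyclins activate, had 63.9, 59.7, 78.998 and 64.8 CPM in db/db replicates 1 to 4, against 101.5, 86.2, 136 and 101.5 CPM in db/m replicates 1 to 4. Every db/db library lay below every db/m library, and replicate 3 was the highest of its group in both. Means were 66.8 ± 8.41 CPM in db/db and 106 ± 21.0 CPM in db/m (SD, n = 4 each). The log2 fold change was -0.67 ± 0.15 (SE), with a 95% interval of -1.01 to -0.33, and the adjusted p was 0.0970 in edgeR's quasi-likelihood test. Cdk6 ranked 204 of 13708 genes by p, within the 223 genes under an adjusted p of 0.1.

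For Cdk6 the call depended on the test. The authors' deposited table gives it a log2 fold change of -0.67 and a false discovery rate of 0.0102, in a table where 4.28% of genes are under 0.05 (2.08% higher and 2.2% lower in db/db). The likelihood ratio test in edgeR repeated these values, with an adjusted p of 0.0102 for Cdk6, and is no separate support. DESeq2 gave an adjusted p of 0.00597, with 5.52% of genes called (2.58% higher and 2.94% lower), whereas limma-voom gave 0.0990 and called 0% of genes. The direction was the same in all 21 alternative analyses, in which the log2 fold change ran between -1.02 and -0.49 and the adjusted p between 0.00597 and 0.437. Without db/m replicate 3, the highest library, it was -0.54.

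Cdk4, the other kinase of the D cyclins, had 434, 439, 546 and 419 CPM in db/db and 456, 497, 649 and 557 CPM in db/m. The groups overlapped, because db/db replicate 3 exceeded db/m replicates 1 and 2. Means were 459 ± 58.2 CPM in db/db and 539.6 ± 83.7 CPM in db/m (SD, n = 4 each). Its log2 fold change was -0.23 ± 0.14 (SE, 95% interval -0.55 to 0.09), and the same edgeR test gave an adjusted p of 0.480. It was -0.11 with the title number as a block, -0.39 adjusted for the erythroid level, -0.42 for the plasma cell level and -0.54 for the intergenic share of reads, with no call. The ratio of Cdk4 to Cdk6, both as CPM per kilobase of counted exon, was 12.5, 13.5, 12.7 and 11.9 in db/db and 8.24, 10.6, 8.76 and 10.1 in db/m. These ratios did not overlap between the groups, and Cdk6 made up 6.90% to 7.77% of the summed kinase transcripts in db/db, against 8.63% to 10.8% in db/m. Both measures are built from the Cdk4 and Cdk6 values given above and are no separate result.

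In mm10, the build of the files, Cdk6 lies at chr5:3344312-3522225 on the plus strand, Cdk4 at chr10:127063603-127067282 on the plus strand and Cdkn2c at chr4:109660876-109666756 on the minus strand. Their promoters are printed because Cdk6 and Cdkn2c were the members lower in db/db at an unadjusted p under 0.05 and Cdk4 is the paired kinase. The sequences are RefSeq promoters of GRCm38.p6, from 250 bases before to 50 bases after an annotated start, 5′ to 3′ on the strand of the gene. Capitals mark the E-box CACGTG, a binding word of MYC and its partners, and the GC box GGGCGG, a word of SP factors, which reads CCGCCC on the other strand.
Cdk6 (chr5:3343643-3343942, plus strand): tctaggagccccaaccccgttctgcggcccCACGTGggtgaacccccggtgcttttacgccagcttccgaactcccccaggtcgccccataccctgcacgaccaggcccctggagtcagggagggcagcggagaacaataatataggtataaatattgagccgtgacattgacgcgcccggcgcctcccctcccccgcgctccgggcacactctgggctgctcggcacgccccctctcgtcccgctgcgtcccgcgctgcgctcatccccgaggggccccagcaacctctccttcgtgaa
Cdk4 (chr10:127063285-127063584, plus strand): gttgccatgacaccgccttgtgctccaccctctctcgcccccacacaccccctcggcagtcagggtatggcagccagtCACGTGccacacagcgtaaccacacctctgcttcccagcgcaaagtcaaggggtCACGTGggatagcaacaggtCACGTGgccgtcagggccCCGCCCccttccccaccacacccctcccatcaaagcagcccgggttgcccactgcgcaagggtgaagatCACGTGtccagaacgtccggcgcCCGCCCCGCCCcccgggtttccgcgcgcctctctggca
Cdkn2c (chr4:109666707-109667006, minus strand): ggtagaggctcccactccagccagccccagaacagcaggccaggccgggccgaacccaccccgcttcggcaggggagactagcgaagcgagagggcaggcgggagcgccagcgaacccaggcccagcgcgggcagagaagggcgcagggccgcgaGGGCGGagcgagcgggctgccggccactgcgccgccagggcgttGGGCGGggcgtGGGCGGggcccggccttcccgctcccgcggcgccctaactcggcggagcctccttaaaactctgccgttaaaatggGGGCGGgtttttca

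The Cdk6 promoter held 1 E-box, 220 bases before the start, and the Cdk4 promoter held 4, at 172, 118, 98 and 11 bases before it. The Cdkn2c promoter shown held 4 GC boxes and no E-box. Another Cdkn2c promoter, at chr4:109665323-109665622 and not printed, held 1 E-box, 34 bases after its start, and no GC box. Of 32851 promoters of the same length in the table, 7.15% held the E-box and 35.7% the GC box on either strand. E2F words (TTTCGCGC, TTTGGCGC and TTTCCCGC) occurred in 1.84% of promoters and forkhead words (TGTTTAC and TGTTTGC) in 8.48%. The table held 8 promoters of 6 members, of which 0 had an E2F word, 3 an E-box, 6 a GC box and 1, that of the upstream Ccnd3 start, a forkhead word. The GC content was 66.7% for Cdk6, 67% for Cdk4 and 73.3% for the Cdkn2c promoter shown, against a median of 52.7% over all promoters. A match is a string of letters in this window, and no binding was measured.

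The D cyclins, the activating subunits, overlapped between the groups in each of the 3 genes. Ccnd2, the D cyclin often linked to cytokine and growth factor signals in blood cells, had 412, 398, 354 and 355 CPM in db/db and 373, 368, 386 and 245 CPM in db/m. The lowest value was that of db/m replicate 4, and the other db/m libraries lay within the db/db range. Means were 379.9 ± 29.5 CPM in db/db and 343 ± 65.8 CPM in db/m, with a log2 fold change of 0.15 ± 0.15 (SE, 95% interval -0.19 to 0.49). Ccnd3, which mice need for the expansion of immature lymphoid and erythroid cells, had 286, 219.6, 423 and 299.6 CPM in db/db and 272, 288, 359.7 and 326 CPM in db/m. Here the db/m range lay inside the db/db range, and the log2 fold change was -0.02 ± 0.19 (SE, 95% interval -0.44 to 0.40). Adjusted for the erythroid level it was -0.43 ± 0.15 (SE), with an adjusted p of 0.262 in edgeR.

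Ccnd1, a D cyclin that responds to mitogens in many tissues, had 20.1, 21.0, 30.4 and 22.4 CPM in db/db and 14.4, 26.5, 29.7 and 9.54 CPM in db/m. The db/m libraries spread more widely than the db/db ones, with a coefficient of variation of 19.99% in db/db and 48.0% in db/m. The log2 fold change was 0.23 ± 0.33 (SE, 95% interval -0.51 to 0.96). In edgeR's quasi-likelihood test the adjusted p was 0.795 for Ccnd1, 0.695 for Ccnd2 and 0.978 for Ccnd3.

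Per kilobase of counted exon, Ccnd3 was the most abundant D cyclin, with 136 ± 37.6 CPM per kilobase in db/db and 138 ± 17.4 in db/m. It supplied 56.6% to 73.0% of the summed D cyclin transcripts in db/db and 63.8% to 76.2% in db/m. Ccnd2 supplied 23.9% to 40.2% in db/db and 22.4% to 34.2% in db/m. Ccnd1 supplied 2.60% to 3.23% in db/db and 1.33% to 3.53% in db/m. The order Ccnd3, Ccnd2, Ccnd1 thus held in all 8 libraries, and the shares overlapped between the groups.

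**Figure D2:**
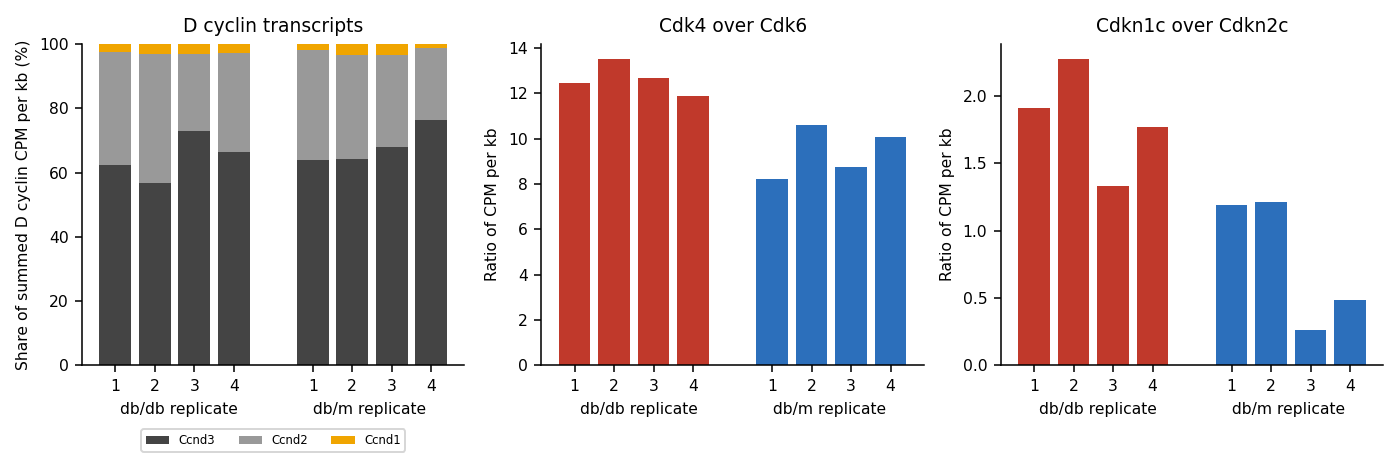
Left, share in percent of each D cyclin in the summed D cyclin level per kilobase, by library. Middle and right, the ratio of Cdk4 to Cdk6 and of Cdkn1c to Cdkn2c per kilobase, with db/db libraries in red and db/m libraries in blue. The Cdk4 to Cdk6 bars are at 11.9 or more in db/db and at 10.6 or less in db/m, and the Cdkn1c to Cdkn2c bars are at 1.33 or more in db/db and 1.21 or less in db/m.

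Among the INK4 inhibitors, Cdkn2c, which restrains Cdk4 and Cdk6 in blood progenitors, had 18.1, 18.1, 22.1 and 18.5 CPM in db/db and 23.8, 20.003, 35.5 and 36.6 CPM in db/m. The single overlap was db/db replicate 3, which exceeded db/m replicate 2. Means were 19.2 ± 1.95 CPM in db/db and 29.0 ± 8.32 CPM in db/m (SD, n = 4 each). The log2 fold change was -0.59 ± 0.21 (SE, 95% interval -1.06 to -0.13) and the adjusted p was 0.220 in edgeR's quasi-likelihood test. Over the 21 alternatives it ran between -1.01 and -0.41, with no call. Cdkn2c lies 7.85 Mb from Lepr on chromosome 4, so an effect of the leptin receptor genotype and one of a strain segment around it cannot be told apart for this gene.

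Cdkn2d, the other INK4 inhibitor, had 73.9, 81.2, 82.6 and 103.5 CPM in db/db and 84.1, 87.2, 78.2 and 94.97 CPM in db/m. The db/m range lay inside the db/db range. The log2 fold change was -0.01 ± 0.13 (SE, 95% interval -0.29 to 0.27), and the same edgeR test gave an adjusted p of 0.978. Per kilobase Cdkn2d was the most abundant of the 4 inhibitors, at 70.3% to 77.3% of their summed level in db/db and 73.3% to 76.9% in db/m.

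Of the CIP/KIP inhibitors, Cdkn1c had 29.8, 35.4, 25.4 and 28.3 CPM in db/db and 24.5, 20.9, 8.09 and 15.3 CPM in db/m. The db/db libraries all lay above the db/m ones, by a narrow margin between db/db replicate 3 and db/m replicate 1, and replicate 3 was the lowest of its group in both. Means were 29.7 ± 4.22 CPM in db/db and 17.2 ± 7.15 CPM in db/m (SD, n = 4 each). The log2 fold change was 0.79 ± 0.30 (SE, 95% interval 0.13 to 1.45), with an adjusted p of 0.246 in edgeR's quasi-likelihood test, and the authors' deposited table gives a false discovery rate of 0.154. Cdkn1c stayed higher in db/db in all 21 alternatives, between 0.53 and 1.96, and none of them called it. It made up 13.8% to 20.1% of the inhibitor transcripts per kilobase in db/db and 5.05% to 14.0% in db/m.

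Cdkn1b, whose product binds cyclin complexes of Cdk2 and also assembles those of Cdk4, was the least abundant member. It had 2.64, 1.73, 1.67 and 2.87 CPM in db/db and 2.34, 2.29, 2.51 and 3.93 CPM in db/m, from 57 to 127 counts per library. The groups overlapped, and the log2 fold change of -0.31 ± 0.36 (SE, 95% interval -1.10 to 0.48) had an adjusted p of 0.728 in the same edgeR test. The ratio of Cdkn1c to Cdkn2c per kilobase was 1.91, 2.27, 1.33 and 1.77 in db/db and 1.19, 1.21, 0.264 and 0.485 in db/m. The ratio of Cdkn1c to Cdk6 was 0.409 to 0.755 in db/db and 0.0758 to 0.308 in db/m. The separation of the last ratio between the groups follows from the values of Cdkn1c and Cdk6 given above and adds nothing to them. The ratio of Cdkn1c to Cdkn2c is likewise built from member values given above and is no separate result. How often ratios of other gene pairs separate was not computed. The summed level of the 4 inhibitors overlapped, at 82.7 to 105.5 CPM per kilobase in db/db and 82.5 to 100.5 in db/m.

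Rb1, the pocket protein that the kinases phosphorylate, had 43.8, 46.0, 62.1 and 59.4 CPM in db/db and 55.3, 54.4, 39.1 and 52.1 CPM in db/m. The groups overlapped, with the highest library in db/db and the lowest in db/m, both replicate 3. The log2 fold change was 0.07 ± 0.16 (SE, 95% interval -0.29 to 0.43), and its adjusted p was 0.873 in edgeR's quasi-likelihood test. Its value depended on covariates, at 0.63 adjusted for the plasma cell level, 0.65 for the intergenic share and -0.11 for the erythroid level, with adjusted p of 0.447, 0.198 and 0.820 in these edgeR fits.

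**Figure D3:**
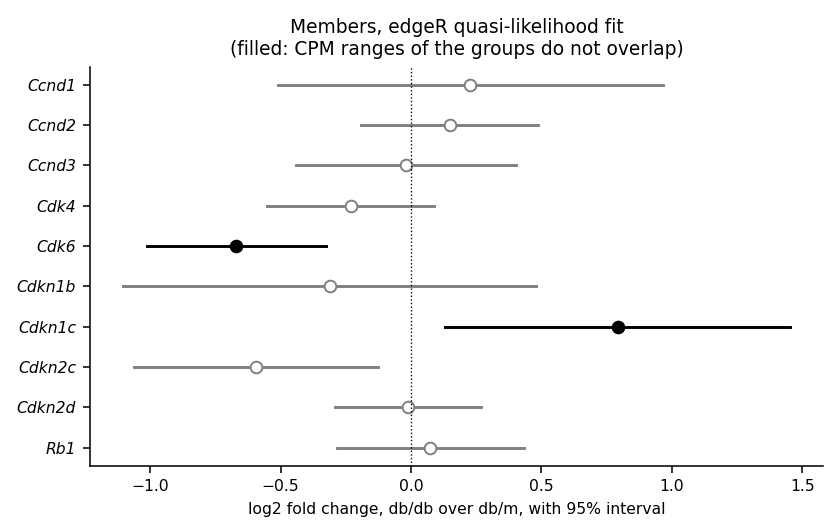
Log2 fold change of each gene, db/db over db/m, with its 95% interval from edgeR's quasi-likelihood fit. Filled points mark the genes whose groups do not overlap, Cdk6 at -0.67 and Cdkn1c at 0.79; the interval of Cdkn2c also lies below 0, and those of the other 7 genes include 0.

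In order of level per kilobase, averaged by group, Cdk4 was highest at 341 ± 43.3 CPM per kilobase in db/db and 401 ± 62.1 in db/m, a level above that of 99.1% of genes. Ccnd3 followed, and then Cdkn2d with 67.2 ± 9.998 in db/db and 67.8 ± 5.51 in db/m and Ccnd2 with 65.8 ± 5.11 in db/db and 59.4 ± 11.4 in db/m, neighbours whose levels lie within their SDs. Cdk6 had 27.1 ± 3.41 in db/db and 43.0 ± 8.50 in db/m, in CPM per kilobase. Cdkn1c (15.3 ± 2.17 in db/db and 8.85 ± 3.68 in db/m), Rb1 (11.4 ± 2.00 in db/db and 10.9 ± 1.63 in db/m) and Cdkn2c (8.53 ± 0.867 in db/db and 12.9 ± 3.69 in db/m) stood close together near the middle of all genes. Within that trio, Cdkn2c was the lowest in every db/db library, and among these Rb1 exceeded Cdkn1c in replicate 3 alone. In db/m the order varied, with Cdkn2c the lowest in replicates 1 and 2 and the highest in replicates 3 and 4. Ccnd1 had 6.18 ± 1.24 CPM per kilobase in db/db and 5.28 ± 2.53 in db/m, and Cdkn1b was lowest, at 0.927 ± 0.256 in db/db and 1.15 ± 0.326 in db/m.

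The counted gene models limit these levels. Beyond the counted 3′ ends, the GENCODE vM21 gene span runs a further 8783 bases for Cdk6 and 11829 for Rb1. For Cdk4 it runs a further 638 bases, for Ccnd2 547 and for the other members at most 54. These are genomic distances that may include introns, and reads there would not have been counted for these genes. Of counted exon bases, 30.3% in Cdkn1c, 29% in Ccnd1 and 15.8% in Ccnd3 overlap a gene on the opposite strand (Gm44732, LTO1 and Bysl), and the strand setting of the counting is not given in the sources used here. Reads of such a gene and its partner cannot be told apart, and for Cdkn1b, Cdkn2c and Cdkn2d there was no such overlap.

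For 5 of the 10 genes, the library numbered 3 stood at the same end of its group in both genotypes. The number is an order within each genotype, and the labels link no db/db library to a db/m library. Replicate 3 was the highest of its group for Cdk4, Cdk6, Ccnd1 and Ccnd3 and the lowest for Cdkn1c, in db/db and in db/m alike. In the other 5 genes replicate 3 did not hold the same end in both genotypes. Replicate 4 was the highest of its group in both for Cdkn1b and Cdkn2d, and replicate 2 the lowest in both for Cdkn2c. For Ccnd2 replicate 3 was the lowest in db/db and the highest in db/m. For Rb1 it was the highest in db/db and the lowest in db/m. The mean level of 16 E2F target genes of S phase, centred on the 8 libraries, was -0.21, -0.36, 0.53 and -0.10 on the log2 scale in db/db and -0.27, -0.06, 0.40 and 0.07 in db/m, so replicate 3 was the highest there too. A list of 10 proliferation markers was likewise highest in replicate 3, at 0.40 in db/db and 0.71 in db/m, and the 12 stem and progenitor markers were lowest there, at -0.32 in db/db and -0.35 in db/m. This is a description of 8 libraries, and no test was made of it.

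**Figure D4:**
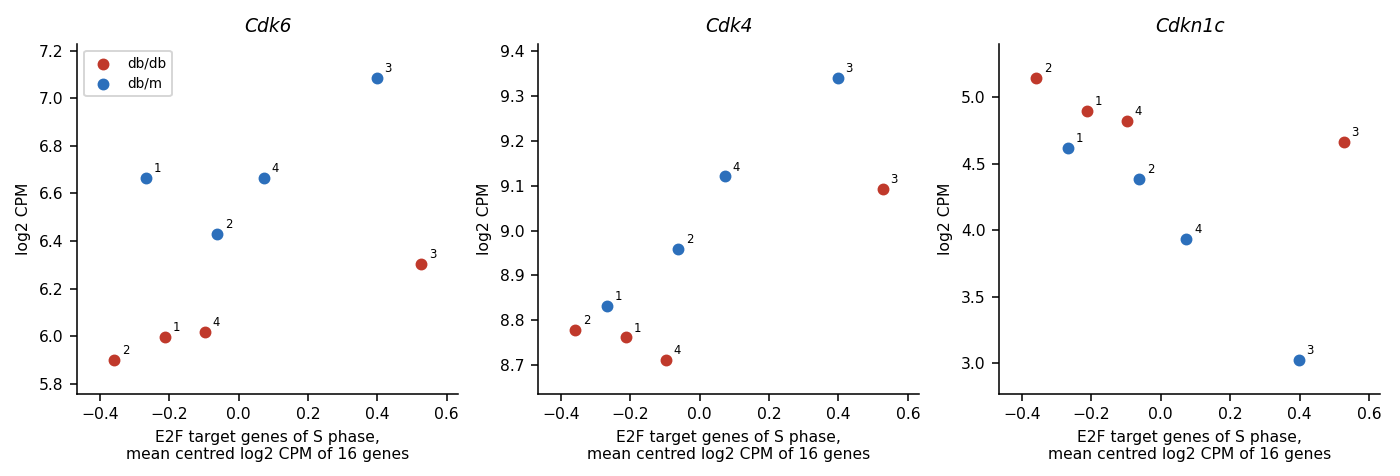
Log2 CPM of Cdk6, Cdk4 and Cdkn1c against the mean centred log2 CPM of 16 E2F target genes of S phase, with 1 point per library and its replicate number. Replicate 3 lies farthest right in both groups, at 0.53 in db/db and 0.40 in db/m, and each db/db point of Cdk6 is below each db/m point.

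The rest of the pathway held no gene that passed the test. Of 12 pocket proteins and E2F factors, 8 were higher and 4 lower in db/db, with a median log2 fold change of 0.08. Tfdp2, a dimer partner of E2F factors, averaged 138 ± 20.8 CPM in db/db and 101 ± 20.4 CPM in db/m (SD, n = 4 each). Its log2 fold change was 0.46 ± 0.16 (SE), and its adjusted p was 0.218 in edgeR's quasi-likelihood test. E2f6, a repressor E2F, had a log2 fold change of 0.19 ± 0.15, and Rbl2, the pocket protein typical of resting cells, one of 0.17 ± 0.15 (SE).

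Of 16 E2F targets of S phase, 3 were higher and 13 lower in db/db, with a median log2 fold change of -0.06 against 0.01 over all genes. Pola1, a subunit of the DNA polymerase that primes replication, averaged 112 ± 12.5 CPM in db/db and 131 ± 15.8 CPM in db/m, and its adjusted p was 0.433 in edgeR's quasi-likelihood test. The replicative helicase subunit Mcm5 averaged 448 ± 96.6 CPM in db/db and 527 ± 92.5 CPM in db/m, and the thymidylate synthase Tyms 97.3 ± 21.0 CPM in db/db and 112 ± 22.2 CPM in db/m. All 10 proliferation markers had a negative log2 fold change, with a median of -0.20. By library their mean centred level on the log2 scale was -0.22, -0.33, 0.40 and -0.12 in db/db and -0.38, -0.49, 0.71 and 0.43 in db/m. Replicates 3 and 4 of db/m were thus the highest of all 8 libraries and replicates 1 and 2 of db/m the lowest. Top2a, the topoisomerase of dividing cells, averaged 326 ± 24.5 CPM in db/db and 436 ± 122 CPM in db/m, and its adjusted p in the same edgeR test was 0.325.

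Of 9 genes of cyclin E, cyclin A, Cdk2 and the Cdk-activating kinase, 5 were higher and 4 lower, with a median of 0.02. Cdc25a, the phosphatase that activates Cdk2, averaged 70.2 ± 14.7 CPM in db/db and 80.3 ± 12.9 CPM in db/m, and Mnat1, the assembly factor of the Cdk-activating kinase, averaged 32.0 ± 3.15 CPM in db/db and 36.4 ± 8.14 CPM in db/m. Both overlapped between the groups. Ccne1, a cyclin E that acts after the D cyclins, averaged 37.3 ± 31.4 CPM in db/db and 27.6 ± 10.1 CPM in db/m, with libraries from 12.7 to 82.9 CPM in db/db and from 20.5 to 42.6 CPM in db/m. Of 3 other Cdk inhibitors, Cdkn1a, a target of p53, averaged 232 ± 72.6 CPM in db/db and 304 ± 171 CPM in db/m, with overlapping libraries. Cdkn2b, an INK4 gene 12.4 Mb from Lepr, averaged 0.407 ± 0.272 CPM in db/db and 1.22 ± 1.16 CPM in db/m, which overlapped as well, and its adjusted p was 0.438 in edgeR's quasi-likelihood test. Cdkn2a and Ccna1 were absent from the deposited count table, so no value can be given for them.

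Of 12 genes that regulate the transcription or breakdown of the members, 6 were higher and 6 lower, with a median of -0.01. Fbxw7, the ubiquitin ligase subunit that targets cyclin E and MYC, averaged 29.8 ± 5.27 CPM in db/db and 44.0 ± 8.49 CPM in db/m, and the log2 fold change of -0.56 ± 0.18 (SE) had an adjusted p of 0.174 in edgeR's quasi-likelihood test. Mycn, a MYC family factor of stem and progenitor cells, averaged 84.7 ± 38.7 CPM in db/db and 46.5 ± 24.8 CPM in db/m, with overlapping libraries and an adjusted p of 0.325 by that test. Cks1b, a cofactor in the breakdown of the Cdkn1b protein, averaged 129 ± 23.6 CPM in db/db and 156 ± 44.2 CPM in db/m.

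The pattern of Cdk6 over the 8 libraries was most like that of Sema4d, H2afy and Pgls, by the Euclidean distance between log2 CPM values centred on their mean. The distances were 0.291 for Sema4d, 0.349 for H2afy and 0.378 for Pgls, against a median of 1.38 over all genes. Sema4d, a semaphorin of immune cells, had 77.3, 71.2, 79.4 and 78.9 CPM in db/db and 109.6, 103.9, 163 and 107 CPM in db/m. In H2afy, which encodes the histone variant macroH2A1, the means were 1429 ± 143 CPM in db/db and 2190 ± 251 CPM in db/m, and in Pgls, an enzyme of the pentose phosphate pathway, 103 ± 19.4 CPM in db/db and 146 ± 26.3 CPM in db/m (SD, n = 4 each). Because these genes were picked for their likeness to Cdk6, whose groups do not overlap, their own difference between the groups is part of that choice and no separate result.

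The libraries also differed in depth and in content. The total count per library ran between 27640853 and 42806327 in db/db, and between 27801581 and 35557731 in db/m. The share of intergenic reads moved with the genotype, at 5.15% to 11.9% in db/db and 12.3% to 26.5% in db/m. The stem and progenitor markers were detected in every library (12 of 12 genes, summed level 3347 to 4522 CPM in db/db and 3334 to 4049 CPM in db/m), although Ly6a, which encodes the sorting antigen Sca-1, had 131 ± 36.1 CPM in db/db and 466 ± 115 CPM in db/m. Lepr itself averaged 1.198 ± 0.995 CPM in db/db and 0.671 ± 0.481 CPM in db/m, and its level is no check of the mutation. In sorted cells sequenced in bulk, fewer cells of a type and less RNA per cell cannot be told apart.

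Markers of other cells moved beside the members. All 12 plasma cell markers were lower in db/db (summed level 1419 to 6481 CPM in db/db and 4755 to 18493 CPM in db/m), and all 12 erythroid markers were higher (1660 to 4881 CPM in db/db and 869 to 1189 CPM in db/m). Of 11 megakaryocyte markers, 10 were higher and 1 lower (1735 to 2989 CPM in db/db and 710 to 1442 CPM in db/m), and granulocyte-monocyte markers summed to 2209 to 5571 CPM in db/db and 3304 to 13735 CPM in db/m. T and NK markers summed to 182 to 231 CPM in db/db and 242 to 434 CPM in db/m, with 1 of 9 genes at 0 in a db/db library, and B cell markers to 106 to 319 CPM in db/db and 235 to 466 CPM in db/m. None of the markers of these other cells passed the test in edgeR's quasi-likelihood fit, which called 0.0365% of all genes. At an unadjusted p under 0.05 in that fit there were 12 of 12 plasma cell, 11 of 12 erythroid and 10 of 11 megakaryocyte markers. There were also 4 of 10 granulocyte-monocyte, 6 of 9 T and NK and 3 of 6 B cell markers, against 15.3% of all genes. The part of these cells in the members' values was not tested beyond covariates. Adjusted for the plasma cell level, the log2 fold change was -0.84 ± 0.25 for Cdk6, 1.35 ± 0.57 for Cdkn1c and -0.86 ± 0.34 for Cdkn2c (SE). With the erythroid level it was -0.90 ± 0.16 for Cdk6, 1.06 ± 0.37 for Cdkn1c and -0.80 ± 0.25 for Cdkn2c (SE). With the intergenic share as a covariate, chosen after seeing the data, it was -1.02 ± 0.23 for Cdk6, 1.96 ± 0.49 for Cdkn1c and -1.01 ± 0.34 for Cdkn2c (SE). None of the 3 genes passed an adjusted p of 0.05 in these edgeR fits. Without a covariate the SE was 0.15 for Cdk6, 0.30 for Cdkn1c and 0.21 for Cdkn2c. These covariates moved with the genotype, so the adjusted values cannot separate the genotype from them.

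**Figure D5:**
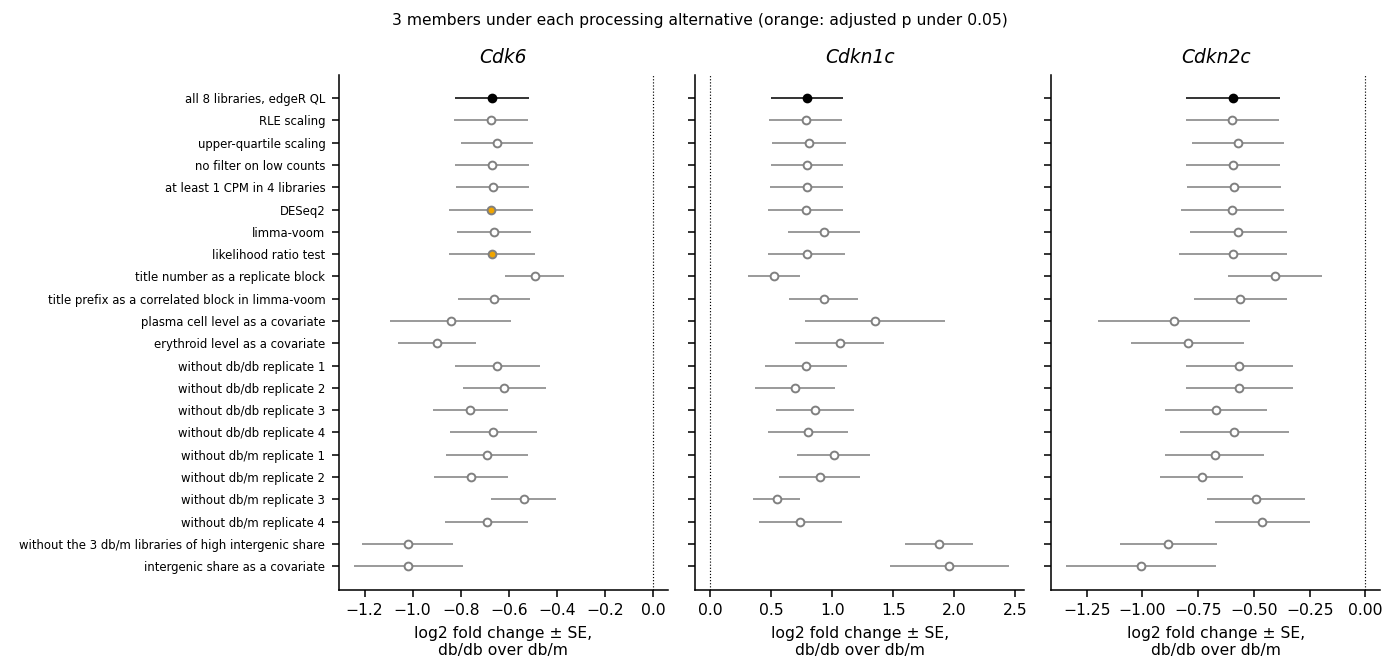
Log2 fold change ± SE, db/db over db/m, of Cdk6, Cdkn1c and Cdkn2c under each alternative analysis, with the value from all 8 libraries and edgeR's quasi-likelihood test at the top. Orange points passed an adjusted p of 0.05, which Cdk6 did with DESeq2 and with the likelihood ratio test, and each gene keeps its direction throughout, Cdk6 between -1.02 and -0.49 and Cdkn1c between 0.53 and 1.96.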

How the data were processed

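The submitters' processing notes name STAR 2.7.10a, featureCounts, Subread 2.0.3, FastQC 0.11.5, edgeR 3.40.2 and the build mm10, with no role for each. The annotation is not given in the sources used here. The authors deposited raw counts for 13708 genes, log2 CPM values and, from a comparison of their own, log2 fold changes and p-values. For the members these match the edgeR likelihood ratio test run here, and both put 587 genes under 0.05. The smallest gene total was 79, so low genes had been left out before deposit. The deposited log2 CPM match TMM-scaled values with a prior count of 2 to within 4.97e-14. Shares of intergenic reads, in percent of uniquely mapped reads, were computed from read counts in the deposited mapping table.

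Counts were fitted in R 4.3.3 with edgeR 4.0.16 (TMM, filterByExpr, quasi-likelihood test), db/db against db/m with no covariate, and p-values were adjusted by Benjamini-Hochberg over all genes at a threshold of 0.05. The biological coefficient of variation was 31.3%. Levels are TMM-scaled CPM with SD over 4 libraries, and CPM per kilobase divides by the deposited exon length. Replicates differed by more than sampling noise (chi-square per gene at least 47.9 in each pair), and 21 genes whose symbols read as dates were kept. DESeq2 1.42.0 and limma 3.58.1 (voom) were alternatives, beside other scalings, filters, blocks, covariates and the omission of each library. The scripts were tested on simulated counts. The members, lists and alternatives were chosen with earlier results of these data known. Named genes are the members, up to 3 genes of smallest p per pathway list, the 3 genes closest in pattern to the member of smallest p, and Lepr and Ly6a as checks.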

Additional observations from a re-analysis of the deposited data

Results flagged for a closer look

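In 3 of the 20 sets of 4 libraries (10 genes in 2 genotypes), 1 library stood apart from the other three by Dixon's ratio of gap to range, at its 95% critical value; chance gives about 1 such set in 20. Cdkn2c in db/db replicate 3 was the highest of its group, at 22.1 CPM with a ratio of 0.884, and it is the library that overlaps db/m. Ccnd2 in db/m replicate 4 was the lowest of its group, at 245 CPM with a ratio of 0.897. Cdkn1b in db/m replicate 4 was the highest of its group, at 3.93 CPM from 127 counts, with a ratio of 0.831.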

How the results depend on the processing

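The number of genes called, 5 with edgeR's quasi-likelihood test, was 757 with DESeq2, 587 with the likelihood ratio test, 14 with the title prefix as a correlated block in limma-voom, 3 when adjusted for the plasma cell level, and 0 with upper-quartile scaling, with limma-voom, and when adjusted for the erythroid level or (added after seeing the data) for the intergenic share. Leaving out each library gave between 0 and 90: 90 without db/m replicate 3, 46 without db/db replicate 4, 2 without db/m replicate 1 and 0 without each of the other 5. Members called were 0 in all of these except DESeq2 and the likelihood ratio test, with 1 (Cdk6) each. Of 210 values of members under alternatives, 184 kept their direction and their side of the threshold, and 24 changed sign. The fit without a filter on low counts is among these alternatives. It repeated the main fit, because the filter removed no gene. Cdkn2d was 0.0098 with upper-quartile scaling, 0.28 with the plasma cell level, 0.13 without db/m replicates 1, 2 and 4 (high intergenic share, chosen after seeing the data) and 0.25 when adjusted for that share. Ccnd3 was 0.086 with the title number as a block and 0.085 with the plasma cell level, and Rb1 was -0.030 with the block and -0.11 with the erythroid level. Ccnd2 was -0.016 with the plasma cell level, -0.020 without the 3 libraries and -0.031 with the intergenic share. Ccnd1 was -0.34 without the 3 libraries and -0.17 with the intergenic share. Leaving out 1 library moved Cdkn2d between -0.13 and 0.050, Ccnd3 between -0.21 and 0.11, Rb1 between -0.039 and 0.15, and Ccnd1 between -0.0047 and 0.48. It also moved Ccnd2 between 0.017 (without db/m replicate 4) and 0.20, Cdkn1b between -0.47 and -0.093 (without db/m replicate 4) and Cdk4 between -0.33 and -0.14 (without db/m replicate 3). Other wide moves without a change of sign were in Rb1, at 0.63 with the plasma cell level, 0.65 with the intergenic share and 0.44 without the 3 libraries, in Ccnd3, at -0.43 with the erythroid level, and in Cdk4, at -0.54 with the intergenic share and -0.11 with the block; none passed the threshold. The causes were not tested. Without the 3 db/m libraries, which leaves 1 db/m library assumed to vary like db/db, the log2 fold change was -1.02 for Cdk6, 1.88 for Cdkn1c and -0.88 for Cdkn2c. Title numbers shared between genotypes gave deviations correlated between -0.15 and 0.14 in 6 pairs, against -0.145 to 0.237 in 10 pairs of other numbers. The labels do not say whether these numbers mark a pairing, and so few pairs cannot settle it. With that title number as a block 5 genes and 0 members were called, with -0.49 for Cdk6, 0.53 for Cdkn1c and -0.41 for Cdkn2c. Title numbers are not the replicate numbers used here. Number 3 occurs in db/m replicate 3 alone, so the block term takes up that library. Depth limits Cdkn1b most, at 57 to 127 counts.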
